A study of Mus musculus with 26 samples.

Results

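C/EBPbeta-only distal sites are places in the mouse genome that appeared in at least 2 of the 8 deposited C/EBPbeta lists and in none of the 8 C/EBPalpha lists, and that lay more than 1 kb from every measured gene start. The centres of all 489556 regions in the 16 lists were pooled, and centres at most 100 bp apart were chained into 113957 sites. Of these, 102911 lay more than 1 kb from a start and are called distal, and 3878 met the full rule, which is 3.40% of all sites. They were thus chosen by the presence and absence of regions in the C/EBP lists. Among the 39705 distal sites in 2 or more C/EBPbeta lists, 9.77% were in no C/EBPalpha list. The other 35827 were also in at least 1 C/EBPalpha list and are called shared. The opposite class, absent from the C/EBPbeta lists and present in at least 2 for C/EBPalpha, held 1469 distal sites. Since the lists chose the sites, every value taken from them below is a description without a test, and only RNA polymerase II (Pol II) and Egr1 are independent of the choice.

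The samples came from wild-type male C57BL6/J mice of 7 weeks that lost 3 of 5 liver lobes, an operation that sets off regrowth of the remaining liver. The resected tissue gave the 0 h sample, and whole regenerating liver gave those at 3, 8, 16, 24, 36, 48 and 168 h. Each antibody and time had 1 sample from the livers of 5 mice, and whether these were pooled is not stated. There were no replicates, so differences between times could not be set against replicate error, and sham-operated animals were not analysed here. All 8 times had chromatin immunoprecipitation with sequencing (ChIP-seq, which recovers DNA bound by a protein) for C/EBPalpha, C/EBPbeta and Pol II, and 36 h also for Egr1. Positions are in the mouse build mm9.

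C/EBPalpha and C/EBPbeta are leucine zipper transcription factors that bind DNA as dimers, with each other or with relatives, at closely similar sequences. C/EBPalpha is abundant in resting hepatocytes and restrains their division. C/EBPbeta is known to be induced in the acute phase response and after partial hepatectomy, and mice without it regenerate liver poorly.

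Several libraries stood apart before any comparison. The C/EBPbeta list of 0 h was the longest with 54574 regions, against 20608 to 36258 in the other C/EBPbeta lists and 20061 to 31267 in the C/EBPalpha lists. The C/EBPbeta lists of 3 and 36 h had 17.4% and 17.1% of their regions within 1 kb of a start, against 7.54% to 13.4% in the other 6 and 8.13% to 14.3% for C/EBPalpha. The Pol II signal of the 3 h library summed to below 0 over all genes, while the other 7 sums were positive. Read depth is unknown for all files. Hepatocyte markers were present, with a summed Pol II level of 373 to 812 per bp over 6 genes in the 8 libraries. The summed level was 1.31 to 4.89 for 5 macrophage markers, from 0 to 3.80 for 3 cholangiocyte markers, and at most 1.89 for each of the neutrophil, stellate, endothelial and lymphocyte lists. Total liver mixes cell types, so fewer cells of a type and less signal per cell cannot be told apart.

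Most C/EBPbeta-only sites were seen at few times. Of the 3878, 3159 (81.5%) were in exactly 2 C/EBPbeta lists, 581 in 3, 108 in 4, 24 in 5 and 6 in 6 lists. None was in 7 or 8. Among shared sites 18.8% were in exactly 2 C/EBPbeta lists and 22.4% in all 8. Read the other way, the share of distal sites without C/EBPalpha was 31.9% in 2 C/EBPbeta lists, 9.82% in 3, 2.35% in 4, 0.63% in 5, 0.17% in 6 and 0% of 3955 and 8020 sites in 7 and 8 lists. The more often a distal site was listed for C/EBPbeta, the less often it lacked C/EBPalpha.

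The time course of the sites had a pair of high points. The C/EBPbeta list of 3 h held 2136 of the sites (55.1%) and that of 36 h held 1623 (41.9%). The 0 h list held 1298, that of 8 h 1198, of 24 h 910, of 16 h 623, of 168 h 579 and of 48 h 282. The 3 and 36 h lists held the most sites although the 0 h list was the longest. Among the other 6 lists the number of sites followed list length, from 54574 regions at 0 h down to 20608 at 48 h. As a share of each list's own distal sites they were 7.33% at 3 h, 6.18% at 36 h, and 1.58% to 3.70% in the other 6 lists. In all, 2580 sites (66.5%) were not in the C/EBPbeta list of unoperated liver, against 36.1% of shared sites. Among sites in exactly 2 C/EBPbeta lists these shares were alike, 68.8% of C/EBPbeta-only and 67.4% of shared sites.

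**Figure D1:**
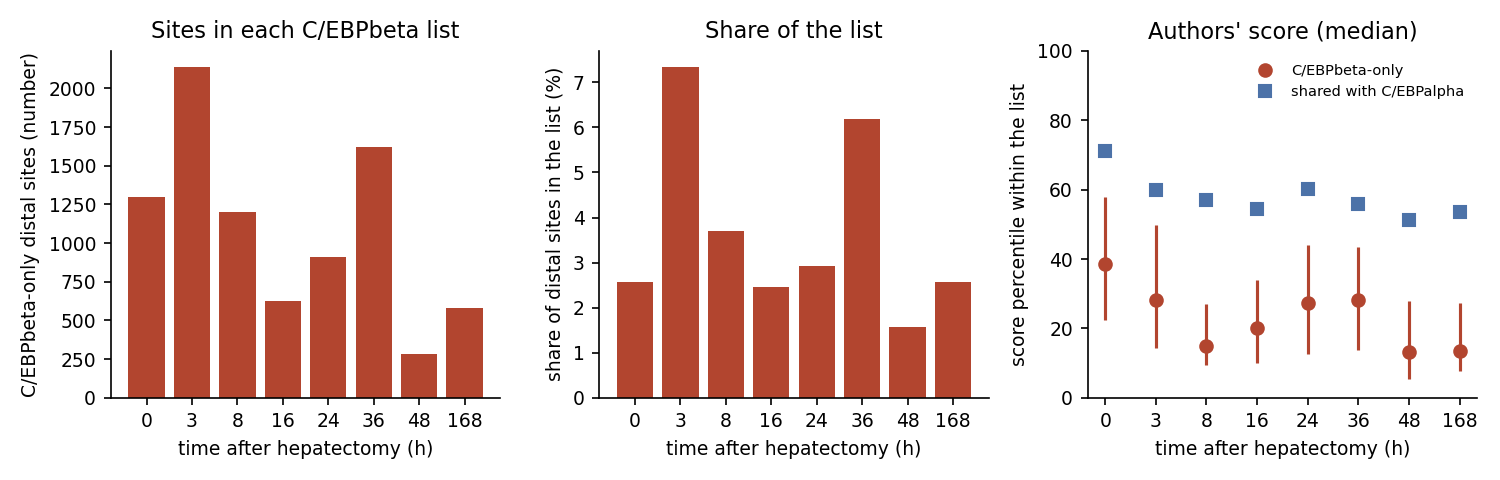
Left and middle, C/EBPbeta-only distal sites in each C/EBPbeta list, as a number and as a percentage of the list's distal sites, by time after hepatectomy; right, median percentile of the authors' score within each list for these sites (circles, with lines from the lower to the upper quartile) and for shared sites (squares). The 3 and 36 h lists hold the most sites, 2136 and 1623, and the median score lies below that of shared sites at all 8 times.

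Many C/EBPbeta-only sites were in both the 3 and the 36 h list. The rule asks for at least 2 C/EBPbeta lists, so some overlap between lists was built in. Left out by it were 4342 distal sites listed for C/EBPbeta at 3 h only and 1725 at 36 h only, without C/EBPalpha. Exactly the 3 and 36 h lists held 1002 sites, 31.7% of the 3159 sites in exactly 2 lists and the most of the 28 pairs of times. These 2 lists also held the most sites, 55.1% and 41.9%, so an even share over pairs is no yardstick for this pair. Of the 6734 shared sites in exactly 2 C/EBPbeta lists, 722 (10.7%) had this pair. The next pairs were 0 and 24 h with 315 sites, 3 and 8 h with 240, 0 and 8 h with 233, 0 and 3 h with 167 and 16 and 24 h with 139. Of these, 0 and 24 h took up similar shares in the 2 classes (9.97% and 9.41%), whereas 16 and 24 h made up 4.40% of C/EBPbeta-only and 11.5% of shared sites. Counting sites that were also in other lists, 1290 were in both the 3 and the 36 h list, which is 60.4% of the sites at 3 h and 79.5% of those at 36 h. For shared sites these percentages were 76.4% and 73.1%, so by this measure the overlap was high in both classes. Only 9 C/EBPbeta-only sites were in exactly the last 2 lists, 48 and 168 h. The 3 and 36 h lists were also the promoter-rich ones, and the part of library or antibody quality in the pairing was not tested. The 1409 sites in neither list are therefore given separately below.

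**Figure D2:**
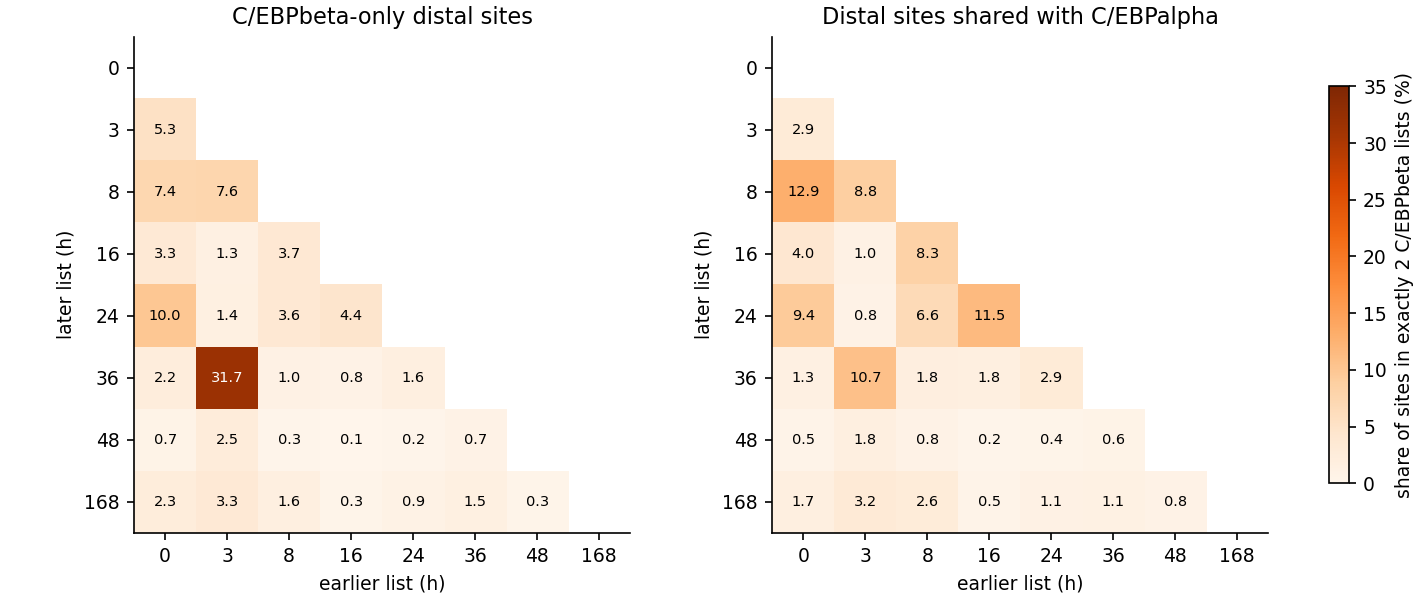
Share of sites in exactly 2 C/EBPbeta lists that had each of the 28 pairs of times, in percent, for the 3159 C/EBPbeta-only sites (left) and the 6734 shared sites (right); columns give the earlier and rows the later time in h. The pair of 3 and 36 h holds 31.7% on the left and 10.7% on the right.

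The authors' scores of these sites were low. A score runs from 1 to 1000 within a list, and was used here only as a percentile of its own list. The median percentile of C/EBPbeta-only sites was 38.6, 28.3, 15.1, 20.1, 27.4, 28.2, 13.3 and 13.6 in the lists from 0 to 168 h. Shared sites had medians of 51.1 to 71.2 in the same lists. Across the mean percentile of a distal site, the share without C/EBPalpha went from 33.8% in the lowest bin of the scale (0 to 10) through 7.65% at 40 to 50 to 0.12% at 90 to 100. A C/EBPalpha region that fell short of being listed cannot be told apart from one that was absent.

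The edges of the rule cut through a continuous range. The 3159 sites in exactly 2 lists had a median percentile of 27.4, and the 38750 distal sites with 1 C/EBPbeta list and no C/EBPalpha list, just outside, had 28.2. The 4474 sites with exactly 1 C/EBPalpha list beside 2 or more C/EBPbeta lists had 30.3, against 49.7 for the 31353 with 2 or more C/EBPalpha lists. The 33 sites at 1000 to 1100 bp from a start had a median of 34.8, and the 36 just under the limit, at 900 to 1000 bp, had 39.3.

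Some sites had a C/EBPalpha region nearby even though none was at the site. The nearest C/EBPalpha region of any time lay within 200 bp for 342 sites (8.82%) and within 500 bp for 730 (18.8%). It was within 1 kb for 1162 and within 10 kb for 72.4%, with a median of 3011 bp. The same distances were not measured for other classes of distal sites. Sites with higher scores were nearer. Within 500 bp of a C/EBPalpha region lay 16.8% of the 1188 sites with a mean percentile up to 20, 30.8% of the 117 at 60 to 80, and 8 of the 9 above 80. Regions of these sites were mostly narrow, with a median width of 25 bp, but 28 were over 200 bp and the widest had 1194 bp. A C/EBPalpha region was touched by at least 1 bp at 25 sites (0.64%), even though the centres were more than 100 bp apart. Another C/EBPbeta-only site lay within 10 kb of 551 (14.2%) and within 50 kb of 1504 (38.8%).

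**Figure D3:**
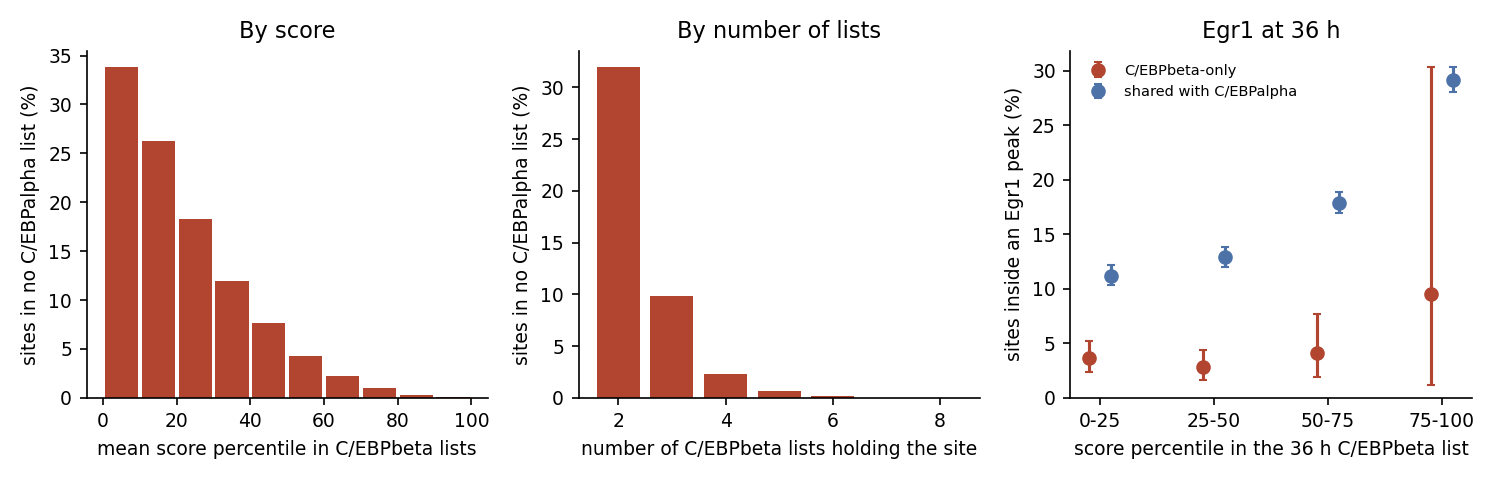
Left and middle, percentage of distal sites in 2 or more C/EBPbeta lists that were in no C/EBPalpha list, by bin of 10 points of the mean score percentile and by number of C/EBPbeta lists; right, percentage of sites inside an Egr1 peak at 36 h by bin of 25 points of the score percentile in the 36 h C/EBPbeta list, with exact 95% intervals. The share without C/EBPalpha goes from 33.8% to 0.12% with score, and the Egr1 share is lower for C/EBPbeta-only than for shared sites in the 3 lower bins, where the intervals do not overlap.

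The most often listed sites, 6 in number, were each in 6 lists. One was at chr13:55522619-55522757, inside F12, which encodes coagulation factor XII of the plasma, 5463 bp downstream of its start. It was absent from the 0 and 24 h lists, and its percentile was 59.9 (3 h), 37.4 (36 h) and between 1.34 and 27.9 in the other 4. The nearest C/EBPalpha region was 3176 bp away. A second, at chr19:4729283-4729397 inside Spnb3, a spectrin gene, was in the lists of 0, 3, 8, 36, 48 and 168 h with percentiles of 13.7 to 53.6. Another, at chr16:5032418-5032527 inside 3930401K13Rik, had the same 6 times and its highest percentile, 78.1, at 0 h. The fourth was at chr3:90001578-90001669, inside Nup210l and 23118 bp upstream of Rab13, a small GTPase gene of vesicle transport. The fifth was on chromosome X, 5623 bp from the start of RP23-158L19.1. The sixth, 64496 bp upstream of Eed, a Polycomb subunit gene, had a mean percentile of 17.0 and a C/EBPalpha region only 200 bp away. All 6 were in the 8, 36 and 168 h lists.

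Among the 6 sites in 5 lists that the naming rule added, 1 had high scores throughout. It lay at chr9:34866875-34866949 inside St3gal4, a sialyltransferase gene, and its percentiles in the lists of 0, 3, 16, 36 and 168 h were 91.6, 70.6, 81.0, 57.9 and 81.4. A C/EBPalpha region lay 470 bp away. The other 5, nearest to Erlin2, Dst, Papln, Wapal and Psmd12, had mean percentiles of 39.2 to 44.5. The 5 sites with the highest mean percentile, chosen after their values were seen, were each in only 2 lists. They lay by Slc30a10 (24 and 36 h, 93.4), a metal transporter, Tmprss4 (16 and 168 h, 91.4), Katnal1 (3 and 36 h, 89.6), Klf3 (3 and 48 h, 84.3), a repressor of the Krueppel family, and E2f2 (3 and 36 h, 84.1). All 5 had a C/EBPalpha region within 106 to 444 bp. The E2f2 site was wide, at chr4:135742399-135743269, and the C/EBPalpha centre 236 bp from its own lay within that span.

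C/EBPbeta-only sites lay nearer to genes than the other distal classes. The median distance to a start was 21757 bp, against 26628 bp for shared sites, 30252 bp for C/EBPalpha-only sites and 29680 bp for all distal sites. Within 5 kb of a start lay 18.2% of them, against 14.1% of all distal sites, and 44.8% (1737) lay inside a measured gene body, against 41.0%. Whether those sites were exonic or intronic was not analysed here. The nearer position went with the 3 and 36 h pair. Sites in exactly these 2 lists had a median distance of 15413 bp, with 24.8% within 5 kb and 48.4% in a gene, while the 2157 others in exactly 2 lists had 26194 bp. Shared sites with that pair of C/EBPbeta lists lay just as near, at 16381 bp, against 29598 bp for those with other pairs. The 1409 sites in neither list had a median of 29604 bp, close to that of all distal sites. Chromosome 2 held the most sites, 289. As a share of a chromosome's distal sites they ranged from 2.95% to 4.61% over the autosomes, and were 2.65% on the X chromosome.

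Egr1 is a zinc finger transcription factor that is switched on early after growth stimuli, and its binding was measured at 36 h. Its peaks held 172 of the 3878 C/EBPbeta-only sites, or 4.44% (exact 95% interval 3.81% to 5.13%), against 7.65% of all distal sites. Shared sites were at 15.1% (14.8% to 15.5%), C/EBPalpha-only sites at 7.42% (6.13% to 8.88%), and distal sites in a single C/EBPbeta list and no C/EBPalpha list at 2.67%. With 1 Egr1 library these intervals cover counting error over sites only. Among sites of the 36 h C/EBPbeta list, the share was 3.62%, 2.82% and 4.15% in the score bins 0 to 25, 25 to 50 and 50 to 75 for C/EBPbeta-only sites, and 11.2%, 12.9% and 17.9% for shared sites. In the top bin it was 2 of 21 sites (1.17% to 30.4%) against 29.2%. A site more than 500 bp from any C/EBPalpha region was in a peak in 2.51% of cases. The gap was smaller between sites in equally few C/EBPbeta lists. For exactly the 3 and 36 h lists, the share was 2.59% (1.70% to 3.78%) of C/EBPbeta-only and 4.02% (2.71% to 5.72%) of shared sites, with overlapping intervals. For the other sites in exactly 2 lists it was 5.56% (4.63% to 6.62%) and 7.32% (6.67% to 8.01%). C/EBPbeta-only sites in neither the 3 nor the 36 h list were at 5.54%.

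Of the 5 Egr1-bound sites in most lists, the first was 32775 bp downstream of the start of Paqr3, in 5 lists with percentiles of 3.18 to 40.5. Next came sites inside Magi1 and upstream of Adcy2, an adenylyl cyclase gene, each in 4 lists. One at chr1:74768681-74768796 lay inside Cyp27a1, which encodes sterol 27-hydroxylase of bile acid synthesis, in the 3, 16, 24 and 168 h lists, with a C/EBPalpha region 144 bp away. The last, 35941 bp from AC121785.3, was in 4 lists.

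Of the sites, 3355 lay within 100 kb of a measured start, and these were nearest to 2676 genes, 12.8% of the 20933 measured. A single site was assigned to 2154 genes, and at most 7 to any gene. A shared C/EBP site was also nearest to 2142 of these genes, so few of them had C/EBPbeta-only sites alone. Genes with Pol II were common among them. Above 0.5 per bp in at least 2 Pol II libraries, the limit used for all tests below, were 1004 of the 2676 (37.5%), against 30.2% of genes nearest to a shared site and 22.7% of all measured genes. Counted per site within 100 kb, the classes were alike. The nearest gene passed this limit for 40.7% of C/EBPbeta-only, 40.1% of shared and 36.1% of all distal sites. Below, a Pol II level is the signal per bp of gene body, rescaled between libraries.

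The 3 genes with most C/EBPbeta-only sites had 7 each. Irf2bp2, a corepressor gene, had 7, all in the 3 h list and 5 of them in exactly the 3 and 36 h lists, between 1194 and 78831 bp from its start. The best scored lay at chr8:129108601-129108664 with a mean percentile of 74.1. Its Pol II level was 27.5, 30.1, 9.68, 15.3, 10.9, 10.6, 12.4 and 6.98 in the libraries from 0 to 168 h. The level was thus high in the first 2 libraries and lower in the other 6. Rxra, the retinoid X receptor alpha that pairs with many nuclear receptors, also had 7 sites with 6 different sets of times. Its Pol II level varied little, at 8.02, 7.46, 10.8, 10.8, 13.5, 9.63, 10.8 and 8.44 from 0 to 168 h.

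Tle3, a corepressor of the Groucho family, had 7 sites, 5 of them in the 3 h list, but a Pol II level of at most 0.80 in any library, and it did not pass the level filter. E2f2, a transcription factor of the cell cycle, had 5 sites around a start whose surroundings up to the midpoints with its neighbours spanned only 29.3 kb, with 4 in its body. It did not pass either, and its highest level, 0.91, was that of 36 h. Jak1, a kinase of cytokine receptors, had 5, with 3 of them at 0 h. Agxt2, a mitochondrial aminotransferase gene, had 5, of which 3 were in the 8 h and 3 in the 24 h list, and none at 3 h. Sept9 and 4930581F22Rik had 5 sites each and 1700003O11Rik had 4. The 4 sites of 1700003O11Rik were all in exactly the 3 and 36 h lists.

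Gene groups differed in how often a C/EBPbeta-only site was nearest, beside 12.8% of all measured genes and 21.1% of the 4761 with Pol II. Since groups differ in the space around their starts, the number of sites per Mb of that space is given too. It was 2.27 for all measured genes and 6.18 for those with Pol II. A shared site was nearest to 48.5% of all measured genes and 64.3% of those with Pol II. Groups with many C/EBPbeta-only sites had shared sites too, among them 22 of 23 liver transcription factor and 13 of 14 bile acid genes. No test was made of a group.

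**Figure D4:**
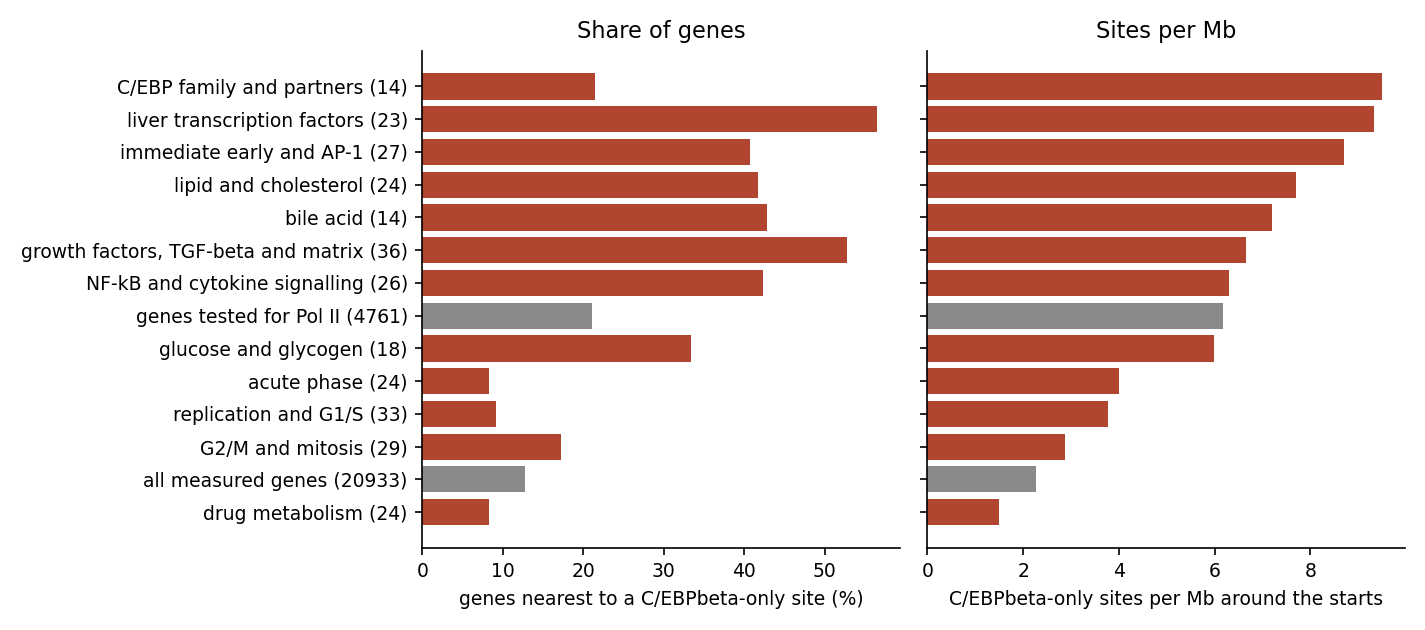
Left, percentage of the measured genes of each group (number in brackets) that were the nearest gene to a C/EBPbeta-only site within 100 kb; right, C/EBPbeta-only sites per Mb of the space around the groups' starts, with all measured genes and genes with Pol II in grey. Among the 12 groups plotted, which leave out cell type markers, liver transcription factors have the highest percentage, 56.5%, and drug metabolism the fewest sites per Mb, 1.499.

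Among acute phase genes, whose products the liver secretes in inflammation, Lbp and Socs3 had such a site. These are 2 of 24 (8.33%), with 4.01 sites per Mb, and 22 of the 24 had a shared site. Socs3, a feedback inhibitor of cytokine receptors, had 2, at chr11:117811298-117811338 in the 3, 16 and 36 h lists and 32816 bp away in those of 3 and 168 h. Its Pol II level was 2.38, 128, 63.9, 41.2, 24.2, 21.3, 50.9 and 17.9 in the libraries from 0 to 168 h, so every library after the operation was above that of 0 h. Lbp, the lipopolysaccharide binding protein, had a site in the 3 and 36 h lists and Pol II levels of 1.53 and 17.5 at 0 and 3 h, and 0.09 at 168 h, with 3.16 to 10.7 between.

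Immediate early and AP-1 genes, which respond first to growth stimuli, had a site in 11 of 27 cases (40.7%, 8.70 per Mb). All but Klf2 of these 11 had a site in the 3 h list, as did 1656 of all 2676 genes nearest to a C/EBPbeta-only site. Gadd45b, a stress-induced regulator of growth, had 4 sites within 1382 to 28683 bp, 3 of them in the 3 h list and 3 in the 36 h list. Pol II over it was 2.46 and 11.3 at 0 and 3 h, and at most 1.39 later. Gadd45a, its relative, had 4 sites as well, with Pol II at 6.72 and 9.97 at 0 and 3 h, and 1.12 to 2.47 later. Jun, the core subunit of AP-1, had a site 23422 bp away in the 0 and 3 h lists. The gene's Pol II level was 46.8, 37.6, 7.99, 6.09, -0.57, 6.79, 11.1 and -3.16 in the libraries from 0 to 168 h. Both libraries with a listed site were the high ones. Jund followed a similar course, from 40.9 at 0 h and 32.5 at 3 h to 4.72 to 14.6 later, with a site in the 3 and 8 h lists. Myc, a driver of growth, had 2 sites over 50 kb away, and levels of 1.499 at 0 h and 6.92 at 3 h. Egr1 itself had 1 site in its body, in the 0, 3 and 8 h lists, and levels of 19.6, 43.4 and 12.7 at 0, 3 and 8 h and 3.32 to 13.4 later. The remaining genes of the 11 were Fosl2, Egr3, Klf2, Klf10 and Dusp1, with Pol II levels at 3 h from -2.58 (Egr3) to 45.2 (Dusp1).

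Genes of DNA replication had a site in 3 of 33 cases (9.09%), namely Ccnd3, E2f2 and Mcm7, and those of mitosis in 5 of 29 (17.2%), Ccnb2, Bub1, Prc1, Mki67 and Anln. Only 8 and 6 genes of these groups passed the Pol II filter. Mcm7, a subunit of the replicative helicase, had its highest level, 5.03, at 36 h, against 4.13 at 0 h. Ccnd3, a G1 cyclin, was also highest then, at 3.83 against 1.26, and its site was in the 3 and 36 h lists.

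Metabolic groups differed. Drug metabolism genes had a site in 2 of 24 cases (8.33%, 1.499 per Mb), Cyp3a25 and Cyp4a14, and 21 of 24 had a shared site. Lipid and cholesterol genes had a C/EBPbeta-only site in 10 of 24 (41.7%, 7.70 per Mb), and all 24 had a shared site. Scd1, the stearoyl-CoA desaturase, had 3 sites, all in the 3 h list, and Pol II at 0.02 and 6.72 at 0 and 3 h, 3.15 at 36 h and at most 0.63 in the other 5 libraries. Elovl6, Ppara, Pparg, Lpin1 and Lpin2 were among the others, with 1 to 3 sites each.

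Bile acid genes had a site in 6 of 14 cases (42.9%, 7.20 per Mb). Cyp7a1, the rate-limiting enzyme of bile acid synthesis, had 1 at 36390 bp in the 16 and 24 h lists. Its Pol II level was 5.64 and -0.45 at 0 and 3 h, 1.03 at 16 h and 25.03 at 168 h, with 3.72 to 6.77 in the other 4. Of the 7 sites of this group, those of Abcc2, Abcg5 and Nr1h4 were in exactly the 0 and 24 h lists, and Abcg8 had 1 in the 0 and 8 h and 1 in the 0 and 3 h lists. These 3 transporters and Nr1h4, the bile acid receptor FXR, had their lowest levels at 3 h, from -0.26 to 0.79, except Abcg8, which was at 0.77 at 8 h and 0.79 at 3 h. Glucose genes had one in 6 of 18 (33.3%, 5.98 per Mb). Ldha, lactate dehydrogenase A, had a site in 4 lists at 2022 bp and Pol II of 5.53 and 27.2 at 0 and 3 h, and 5.26 to 13.7 later. Fbp1, a gluconeogenic enzyme, had a site in its body in the 3, 8, 36 and 168 h lists, and levels of 6.02 at 0 h, between 4.17 (16 h) and 24.6 (168 h) later. Pklr, Slc2a1, Gpi1 and Tat were the other 4.

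Transcription factors of the liver had the highest share among the 12 groups other than cell type markers, 13 of 23 (56.5%, 9.32 per Mb), in wide surroundings with a median of 108 kb. Besides Rxra with 7, Bcl6 had 4 and Onecut1 had 3, and Hnf4a, Onecut2, Nr5a2, Nfia, Nfib, Gata4, Gata6, Tbx3 and Stat5b were among those with 1 each. Hnf4a, a central hepatocyte factor, had levels of 9.19 to 13.2 in all 8 libraries. Onecut1 was at 4.95 at 0 h, and its highest and lowest levels were 11.2 (48 h) and 1.36 (168 h). In the C/EBP family and its partners 3 of 14 had a site (21.4%, 9.49 per Mb). Trib1, a pseudokinase that leads C/EBPalpha to degradation, had 4 along with 28 shared sites, and Pol II of 17.1 and 28.9 at 0 and 3 h, and 7.06 to 13.4 later. Tef had 3 and Cebpe 1. The genes of both factors had none. Cebpa had 10 shared sites and a Pol II level of 93.2 at 0 h against 9.02 to 23.2 later. Cebpb had 2 shared sites and levels of 56.5 and 381 at 0 and 3 h, and 13.9 to 83.8 later.

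Growth factor, TGF-beta and matrix genes had a site in 19 of 36 cases (52.8%, 6.65 per Mb). Igfbp1, an insulin-like growth factor binding protein, had 3, at 1662 and 2356 bp in its body and at 46966 bp. Over its body Pol II was 33.7, 256 and 63.7 at 0, 3 and 8 h and 23.4 to 37.1 later. Egfr, the epidermal growth factor receptor, had 2, both in the 3 and 8 h lists, and levels of 1.401, 5.54, 11.6, 2.61, 13.0, 8.52, 11.5 and 8.90 in the libraries from 0 to 168 h. All later libraries lay above the one at 0 h. Igf1, insulin-like growth factor 1, had 1 site in its body in the 24 and 48 h lists, and its 2 highest levels, 5.99 and 4.88, were those of 24 and 48 h, against 0.74 at 0 h. Myh9, a non-muscle myosin, had 2 sites and levels of 0.05 and 5.40 at 0 and 3 h, 1.30 to 2.99 from 8 to 48 h and -0.44 at 168 h. NF-kB and cytokine genes had one in 11 of 26 (42.3%, 6.30 per Mb). Il1r1, the interleukin-1 receptor, and Tnfrsf1a, a TNF receptor, had levels of 0.38 and 4.93 at 0 h and 4.54 and 19.1 at 3 h. Cxcl10, a chemokine, was at 3.58 at 0 h and at most 0.70 later.

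Markers of cells other than hepatocytes had a site in 3 of 23 cases (13.0%), near the 12.8% of all measured genes. Of the hepatocyte markers 4 of 6 did (Alb, Apoa1, Tat and Cps1), and of 5 macrophage, 3 neutrophil, 4 endothelial and 3 lymphocyte markers none did. Among stellate cell markers Lrat and Acta2 had 1, and among cholangiocyte markers Krt7. Cps1, a urea cycle enzyme, had 4 sites in its body, all in the 8 h list.

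Pol II over the nearest genes was compared with 0 h by counting those past a log2 change of 1 on the scale of level plus 0.5, without a test. Changes of low genes are understated on this scale. The nearest genes behaved much like all genes tested. At 3 h, 190 of the 1004 (18.9%) were higher and 216 (21.5%) lower, against 18.1% and 21.4% of the 4761. At 8 h 13.1% were higher and 11.6% lower, against 14.5% and 12.8%. At 16 h 13.4% and 10.8% stood beside 15.1% and 10.6%, at 24 h 15.7% and 13.1% beside 18.4% and 14.4%, at 36 h 14.9% and 10.4% beside 16.5% and 11.1%, and at 48 h 13.8% and 12.5% beside 15.2% and 13.5%. At 168 h 151 (15.0%) were higher and 173 (17.2%) lower, against 17.7% and 19.3%. All 7 comparisons share the single 0 h library. The split depends on the scale between libraries: the higher genes made up 46.8%, 53.2%, 55.6%, 54.5%, 59.1%, 52.7% and 46.6% of the genes past the limit from 3 to 168 h, and 38.4%, 37.1%, 72.3%, 34.2%, 59.1%, 37.9% and 11.1% without rescaling.

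The largest changes that held in each library of a window were as follows. In both early libraries (3 and 8 h), 81 genes (8.07%) were higher and 73 (7.27%) lower, against 8.19% and 8.25% of all tested. Socs3 led the higher ones. Tgm2, transglutaminase 2, with 2 sites in its body, was at -0.04, 10.4 and 4.10 at 0, 3 and 8 h and 0.52 to 3.26 later. The uncharacterised 4833422F24Rik, with a site in the 36 and 168 h lists, was at -0.05 at 0 h and 2.04 to 16.5 in the 7 later libraries, and it was among the 3 highest in the middle (16 and 24 h) and late (36 and 48 h) windows as well. In the middle window 72 were higher and 61 lower (background 8.09% and 6.55%), and in the late one 87 and 67 (9.85% and 7.5%). 2200001I15Rik went from 0.17 at 0 h to 3.71 to 8.45 later, with a site in the 16 and 24 h lists and another in those of 3 and 36 h.

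On the lower side, 4732444A12Rik was at 13.2 and -0.999 at 0 and 3 h, and at most 2.38 later. AL844480.29-1 was at 10.8 at 0 h and at most 5.97 later. G430095P16Rik was at 7.94 at 0 h and at most 1.12 later, Arrdc2, an arrestin family gene, at 3.93 and at most 0.58, and Glrx5, a mitochondrial glutaredoxin, at 3.71 and at most 2.13. Hes1, a repressor downstream of Notch, had 2 sites, in the 8 and 24 h and in the 3 and 36 h lists, and Pol II of 21.4, 9.47, 3.11, 5.13, 3.21, 4.91, 3.76 and -0.03 in the libraries from 0 to 168 h. At 168 h Jun and Hes1 had the lowest change. Both levels were below 0 there and were set to 0, so this ranking rests on their 0 h levels. Rps21, a ribosomal protein of the small subunit, was among the highest, at 0.00488 at 0 h and 6.48 at 168 h, with Tmem147 (-0.15 and 3.49) and Oat, ornithine aminotransferase (0.98 and 9.15).

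Angptl8, named EG624219 in the files, shows how a C/EBPbeta-only site can lie beside a gene start that both factors occupied. It encodes a secreted regulator of plasma triglycerides. Its C/EBPbeta-only site at chr9:21638008-21638078 lay 1912 bp upstream of the start, inside Dock6, in the 3 and 36 h lists. Another site within the 250 bp before the start to 50 bp after it was in all 8 C/EBPbeta and all 8 C/EBPalpha lists. The bases before the start are shown from RefSeq for this reason, on the plus strand of build GRCm38.p6, chr9:21835260-21835509, which is a different build from that of the sites. Capitals mark a match to the C/EBP motif TTGCNNAA or its reverse complement TTNNGCAA, 100 bp before the start.
Angptl8 promoter: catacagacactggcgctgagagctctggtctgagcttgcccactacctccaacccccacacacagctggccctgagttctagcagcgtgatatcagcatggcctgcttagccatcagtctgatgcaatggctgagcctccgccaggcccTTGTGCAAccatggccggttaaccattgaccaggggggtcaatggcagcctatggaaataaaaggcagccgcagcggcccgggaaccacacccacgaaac
The motif occurs on either strand in the same 250 bp of 3142 of 32851 RefSeq promoters (9.56%), so a match is common. Among genes named for most sites or largest changes that had a RefSeq promoter, only Angptl8 had a match in the promoter searched. The search took the first RefSeq promoter of each gene, while Rxra, Agxt2, E2f2 and Rps21 had 2 and Sept9 had 4. A promoter searched may thus lie apart from the start used for the C/EBP sites. Apart from Angptl8, Rps21 and Tmem147, none of these genes had a C/EBP site at the start. Pol II over Angptl8 was at 63.8, -0.21, 15.2, 27.7, 32.4, 30.8, 17.9 and 36.0 in the libraries from 0 to 168 h. The 3 h library, in which the C/EBPbeta-only site was listed, was the lowest, and that of 36 h, where it was also listed, was at 30.8 beside 15.2 to 36.0 in the other libraries after 3 h. The sequences of the C/EBPbeta-only sites themselves were not analysed here.

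Pol II at the matching time was then compared between genes whose site was in that time's C/EBPbeta list and those whose site was not. Each gene's log2 level was centred on its mean over the 8 libraries. Averaged over times, genes with a listed site were higher by 0.12 on the log2 scale (SD 0.19 over 8 times), above 0 at 7 of the 8. In an exact two-sided permutation test over all 40320 orders of the C/EBPbeta times, p was 0.0232 (0.0364 after Benjamini-Hochberg adjustment over 3 tests). From 0 to 168 h the difference was 0.01, 0.51, 0.09, -0.13, 0.23, 0.08, 0.05 and 0.14, with 386, 676, 315, 154, 256, 572, 99 and 189 genes listed. The 3 h time was the highest and 16 h the only one below 0. For the 3061 genes nearest to a shared site the mean was 0.06 (SD 0.11), with an exact permutation p of 0.0812, also 0.0812 after adjustment. The difference between the classes was 0.06, with an exact permutation p of 0.0243 and an adjusted p of 0.0364. By exact sign-flip its p was 0.0703, and 2142 of the 2676 genes were nearest to sites of both classes.

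The 3 h time carried much of this, and the 3 and 36 h lists named many of the same sites. Genes with a site in the 36 h list had a difference of 0.08 in the 36 h Pol II library but of 0.33 in that of 3 h. Without the 3 h libraries the mean was 0.06 with an exact permutation p of 0.175, and without both 3 and 36 h it was 0.04 with an exact permutation p of 0.236. The call was also lost without the 8, 24 or 48 h libraries, without the filter on low levels, for genes whose body held the site, and by exact sign-flip over the 8 times, with p of 0.0538 to 0.0818.

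**Figure D5:**
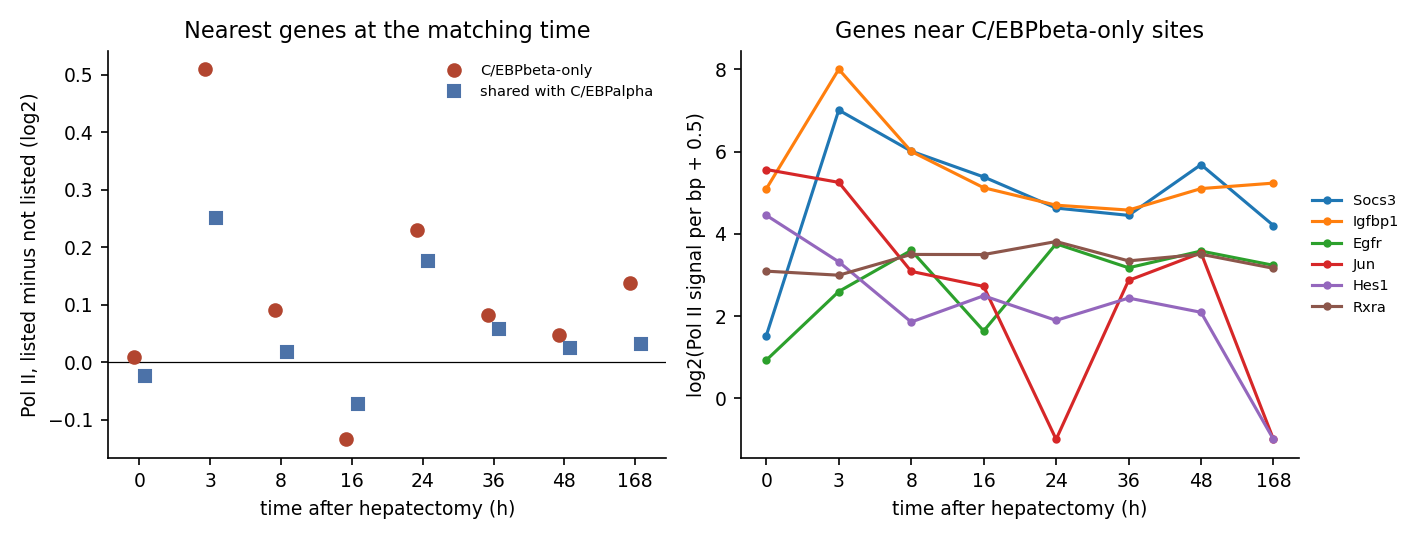
Left, difference in centred log2 Pol II level between nearest genes whose site was in that time's C/EBPbeta list and those whose site was not, for C/EBPbeta-only sites (circles) and shared sites (squares), by time; right, log2 of the Pol II level plus 0.5 for 6 genes near C/EBPbeta-only sites, with levels below 0 set to 0 and 1 library per point. The difference is largest at 3 h, 0.51 and 0.25, and below 0 at 16 h for both classes.

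A smooth course of Pol II over the 8 libraries was tested with limma on all 4761 genes. With Benjamini-Hochberg adjustment 1 gene passed 0.05 (0.021%), and of the 1004 nearest to a C/EBPbeta-only site 0 did, with Rps21 the closest at an adjusted p of 0.373. At an unadjusted p under 0.05 there were 80 of the 1004 (7.97%), beside 9.62% of all tested. Without the 0 h library these were 229 (22.8%) beside 19.5%, with an adjusted p under 0.05 for 0 of the 4761.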

How the data were processed

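Samples were grouped by antibody and time. The C/EBP and Egr1 lists give the authors' score per region, per the file headers, used here as a percentile of its list. For Pol II the deposited values are a signed score per gene, by their range a background-subtracted sum over the gene body. Neither the scaling between libraries nor the caller of the C/EBP regions is stated in the sources used here. Bowtie 0.12.7, MACS 1.4.1 and mm9 are named per the submitters' processing notes, with no role. The mock IgG sample was not analysed here.

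Gene starts came from the Pol II files: of 31804 entries, those with a unique name and a width of at least 500 bp gave 20933 genes, and starts were moved back by 500 bp. Pol II signal was divided by width, and a median-of-ratios factor from 1472 genes brought the libraries to a common scale. This moved log2 changes against 0 h by 0.26, 0.33, -0.32, 0.41, -0.01, 0.33 and 0.97 from 3 to 168 h. Negative values were replaced by 0, and the pseudocount for log2 was 0.5. Genes above 0.5 in at least 2 libraries entered the trend test, a natural spline of time rank with 3 df in limma 3.58.1 (R 4.3.3). Other steps used Python 3.11.15, pandas 2.3.3 and scipy 1.17.1. Scripts were tested on simulated data. With 1 library per time, no p-value measures the spread between replicates. The permutation p rests on orders of the times and the sign-flip p on signs over the times. The trend p rests on the scatter of single libraries around the spline.

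Named were the 12 sites in most C/EBPbeta lists, the 5 with Egr1 in most lists, the 10 genes with most sites, the 3 highest and 3 lowest changes per window, genes of 12 lists nearest to a site, and Cebpa, Cebpb and Egr1. Members, lists and rules were chosen with earlier results of these data known. No mm9 genome was used here, so the planned motif search in the sites was not run. Some items that these rules name are not reported here.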

Additional observations from a re-analysis of the deposited data

How the results depend on the processing

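The number of C/EBPbeta-only distal sites, 3878, moved to 1350 with each list set to its 20061 top-scoring regions, to 719 when 3 or more C/EBPbeta lists were required, and to 2530 without the 3 and 36 h lists, a choice made after seeing the data. It was 2784 to 4188 with the lists of any 1 time left out, and within 1.5 times of the main number under the 5 other planned settings (3119 to 4282). The Egr1 share was 2.37% with Egr1 peaks in the upper part of the score, split at the median (shared sites 8.19%), and 5.54% for sites in neither the 3 nor the 36 h list (9.75%). The direction against shared sites held in both.

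The Pol II difference of 0.12 between listed and not listed genes stayed above 0 under all 17 alternatives, and p was under 0.05 in 9. Its exact permutation p was 0.0726 without the filter on low values (0.051) and 0.0818 for genes whose body held the site (0.14). Without the 3 and 36 h libraries the exact permutation p was 0.236 (0.036). The exact sign-flip, a different test, gave p = 0.0781 (0.12). With 1 time left out the difference ranged from 0.0579 (p = 0.175, exact permutation) to 0.157 (p = 0.00179, exact permutation). Counts past a log2 change of 1, summed over 7 times, were 1055 higher and 974 lower, and 303 and 388 with a pseudocount of 2, which shrinks changes by construction. The trend called 1 gene, 0 with a pseudocount of 0.1, 0 without the filter, and 0 to 1 with 1 library left out. Apart from the pseudocount of 2 the cause was not tested. No paired analysis was possible because each antibody and time had 1 sample. Depth is unknown, so a region missing from a list may lie below its limit.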
